A study of Rattus norvegicus with 2 samples.

Results

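The 7 subunits of respiratory complex I that are encoded in the mitochondrial genome (Mt-nd1 to Mt-nd6 and Mt-nd4l) were examined in cortical neurons treated with NC siRNA, a universal control duplex, or with CDH12 siRNA, a duplex directed against the adhesion molecule Cadherin-12. All 7 were found by their Ensembl identifiers among the 16756 genes of the deposited tables, and none was absent. The names were assigned to the identifiers when the genes were chosen, since the tables carry no symbols. The genes were chosen by name after an earlier look at the same data, in which Mt-nd4 had the smallest P of edgeR's exact test among the genes that were higher with CDH12 siRNA. The difference between the libraries had therefore already been used, and the subunits' values are given as a description with no test. The study asked how knockdown of CDH12 alters the transcriptome of growing neurons. Both groups were primary neurons from the cerebral cortex of E18 Sprague-Dawley rat embryos, taken after removal of the meninges, electroporated with the siRNA and collected after 36 h. Each treatment had 1 library, so no difference has a replicate check, and an effect of the siRNA cannot be told apart from a difference between cultures or library preparations. Each was a bulk culture, in which a different number of cells of a type, of mitochondria per cell and a different amount of RNA per mitochondrial genome cannot be told apart.

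Complex I, or NADH:ubiquinone oxidoreductase, is the entry enzyme of the respiratory chain. It passes electrons from NADH to ubiquinone and pumps protons across the inner mitochondrial membrane, and neurons rely on the resulting ATP for ion transport and axon growth. Its membrane arm is built around the subunits made inside the organelle, whereas the remaining subunits are encoded in the nucleus and imported. Mitochondrial DNA is transcribed from both strands into long precursors that are cut at the transfer RNAs between the genes. Mt-nd6 lies on the light strand and the other subunits of complex I on the heavy strand, and Mt-nd4l and Mt-nd4 share a bicistronic messenger RNA in which their reading frames overlap.

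The deposited value of a gene is its normalized count, the reads counted for it divided by 1 size factor per library. All values were whole multiples of the smallest value above 0 in their library, so whole reads were recovered, 15500488 for NC siRNA and 13699612 for CDH12 siRNA. The 7 subunits together had 104503 and 98008 reads, respectively. They took 0.674% of the reads with NC siRNA (95% Wilson interval 0.67% to 0.678%) and 0.715% with CDH12 siRNA (0.711% to 0.72%). The log2 ratio of their summed normalized counts, CDH12 siRNA over NC siRNA, was 0.07 (0.06 to 0.09). All intervals given here cover counting error only and treat each read as an independent draw, which reads from 1 molecule are not. The level of CDH12 itself, the markers of neurons and of other cell types, and the nuclear subunits of complex I were not analysed here, because the gene table at hand paired none of the identifiers with a symbol.

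Mt-nd4 was more than 2-fold higher in the CDH12 siRNA library, and the other 6 subunits were at most 1.08-fold higher or, for Mt-nd5, 0.942 times as high. On the log2(normalized count + 1) scale, 1 of the 7 subunits was therefore over 2-fold higher and 0 were over 2-fold lower. Among all 13317 genes with at least 20 reads in both libraries together, 1.92% differed by more than 2-fold in either direction and 1.13% were more than 2-fold higher with CDH12 siRNA. Because this contrast had chosen the genes, nothing is read from their count. The median log2 ratio of the 7 subunits was 0.08, beside a median of -0.0030 over all genes with at least 20 reads. In the plot of normalized counts, Mt-nd4 is the subunit whose libraries stand clearly apart.

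**Figure D1:**
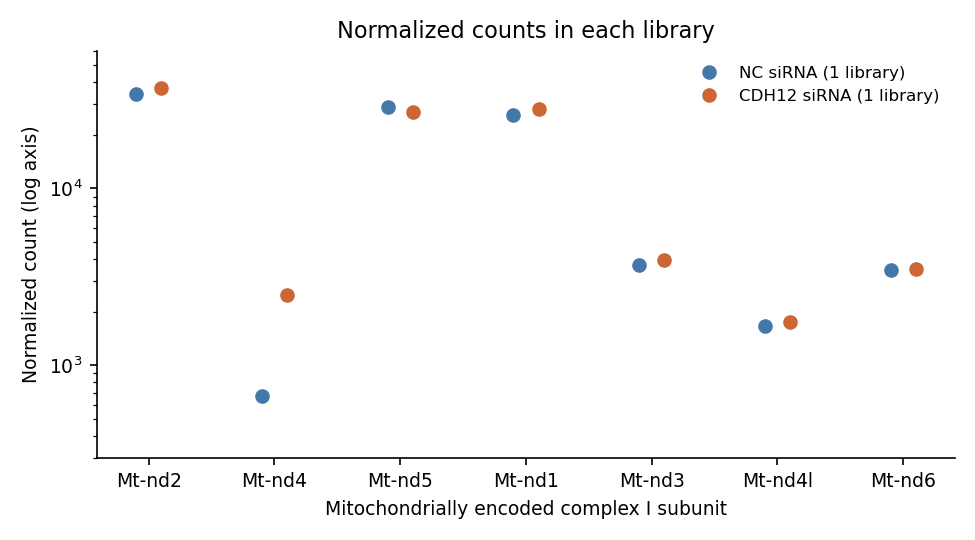
Normalized counts (log axis) of the 7 mitochondrially encoded subunits of complex I after NC siRNA or CDH12 siRNA, 1 point per library. Mt-nd4 lies at 671 and 2500 normalized counts, whereas the points of every other subunit lie close together. Counts are not corrected for gene length, so heights are not to be compared between genes.

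Mt-nd2, Mt-nd4 and Mt-nd5 are the antiporter-like subunits, each of which holds a proton channel of the membrane arm. Mt-nd4 (ENSRNOG00000029707) had 671 normalized counts with NC siRNA and 2500 with CDH12 siRNA. Its log2 ratio was 1.90, with a counting interval from 1.78 to 2.02, which corresponds to a 3.72-fold higher value (3.42 to 4.05). By number of reads it was the 5132nd gene of the NC siRNA library and the 1317th of the CDH12 siRNA library. Mt-nd2 (ENSRNOG00000031033) had 34293 normalized counts with NC siRNA and 37070 with CDH12 siRNA. The CDH12 siRNA library was thus slightly higher, by a log2 ratio of 0.11 (0.09 to 0.13). Mt-nd5 (ENSRNOG00000029971), at the far end of the membrane arm, had 28713 and 27044 normalized counts, respectively. It was the only subunit that was lower with CDH12 siRNA, with a log2 ratio of -0.09 (-0.11 to -0.06). The 3 proton-pumping subunits thus differed in direction and in size, and Mt-nd4 stood apart from both of the others.

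Mt-nd1 (ENSRNOG00000030644) forms the part of the membrane arm that borders the ubiquinone site. It had 26124 normalized counts with NC siRNA and 28010 with CDH12 siRNA, a log2 ratio of 0.10 (0.08 to 0.12). The difference was in the same direction as that of Mt-nd2 and of about the same size.

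The other subunits are small membrane proteins packed between Mt-nd1 and the proton channels. Mt-nd3 (ENSRNOG00000033615), which carries a flexible loop near the ubiquinone site, had 3713 normalized counts with NC siRNA and 3937 with CDH12 siRNA, a log2 ratio of 0.08 (0.02 to 0.15). Mt-nd4l (ENSRNOG00000031053), which is translated from the same messenger RNA as Mt-nd4, had 1676 and 1768 normalized counts, respectively. Its log2 ratio was 0.08 and its interval, from -0.02 to 0.17, held 0. Mt-nd6 (ENSRNOG00000029042), the subunit from the light strand, had 3471 normalized counts with NC siRNA and 3483 with CDH12 siRNA. Its log2 ratio was 0.0046 (-0.06 to 0.07), the smallest difference of the 7.

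**Figure D2:**
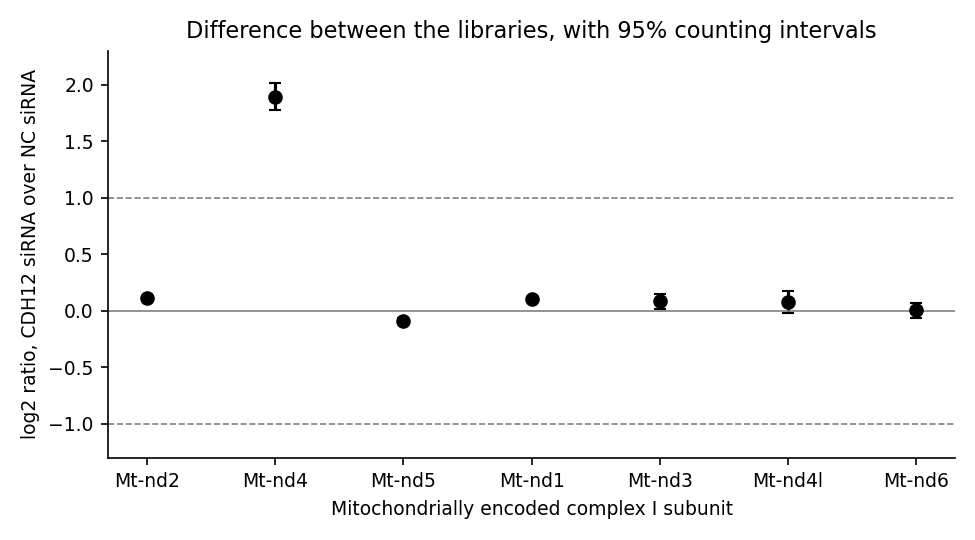
The log2 ratio of CDH12 siRNA over NC siRNA for each subunit, with its 95% Wilson interval for counting error (bars). Dashed lines mark a 2-fold difference. Mt-nd4 lies at 1.90 and the other 6 subunits between -0.09 and 0.11.

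The summed normalized count of the 7 subunits was 5149 higher in the CDH12 siRNA library. This is a net difference, to which Mt-nd2 contributed 2777 counts, Mt-nd1 1885, Mt-nd4 1828 and Mt-nd5 -1669. Mt-nd3, Mt-nd4l and Mt-nd6 contributed at most 224 each. Mt-nd4 had 0.68% of the subunits' reads with NC siRNA and 2.41% with CDH12 siRNA. Without Mt-nd4, the sum over the other 6 subunits went from 97990 to 101311, a log2 ratio of 0.05 (0.04 to 0.06). Within the 7 subunits, the share of Mt-nd5 reads was 29.1% (28.8% to 29.4%) with NC siRNA and 26.1% (25.8% to 26.3%) with CDH12 siRNA. The share of Mt-nd2 was 34.8% (34.5% to 35.0%) and 35.7% (35.4% to 36.0%), respectively, and that of Mt-nd1 was 26.5% and 27.0%. Leaving Mt-nd4 out of the total, Mt-nd5 had 29.3% and 26.7% of the remaining reads.

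Ratios between subunits within a library do not depend on the size factors. For every 100 reads of Mt-nd4l, its partner on the bicistronic transcript, Mt-nd4 had 40.1 reads with NC siRNA (36.7 to 43.7). With CDH12 siRNA the value was 141 reads (133 to 151). Mt-nd4 thus had fewer reads than Mt-nd4l with NC siRNA and more with CDH12 siRNA. Mt-nd4 is the longer of these genes and counts are not corrected for length. Neither value therefore shows how the amounts of the messages compare, and neither library is taken as the usual ratio. For every 100 reads of Mt-nd5, the next heavy-strand subunit along the mitochondrial genome, Mt-nd4 had 2.34 reads (2.17 to 2.52) and 9.24 reads (8.86 to 9.64), respectively. Relative to each of the other 6 subunits in turn, Mt-nd4 was between 3.44-fold and 3.95-fold higher with CDH12 siRNA. All 6 ratios share the Mt-nd4 reads, and the other subunits differed only between 0.942-fold and 1.08-fold, so this narrow range follows by arithmetic. The plot of these ratios restates the difference of Mt-nd4 and adds no support to it.

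**Figure D3:**
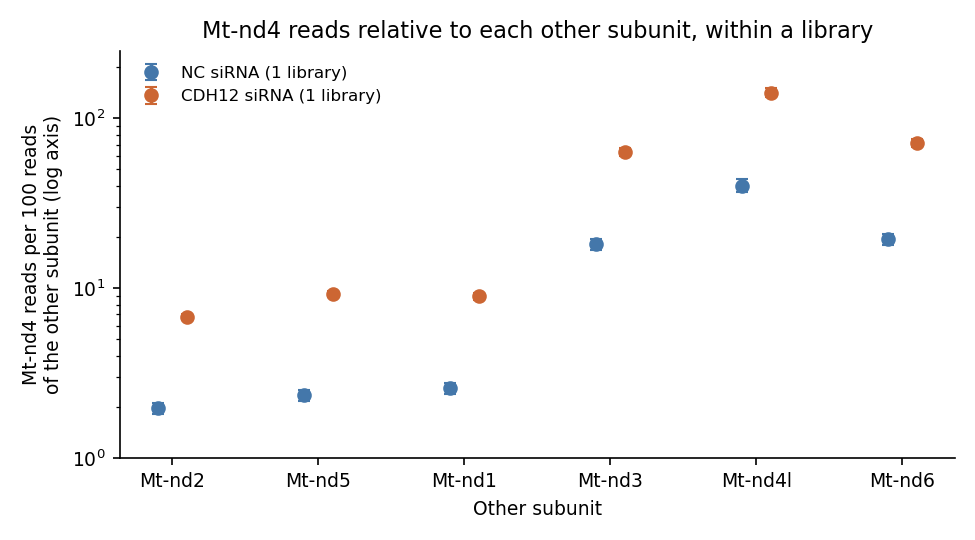
Reads of Mt-nd4 for every 100 reads of each other subunit (log axis), in the NC siRNA library and the CDH12 siRNA library, with 95% counting intervals (bars). With each of the 6 partners the CDH12 siRNA library lies above the NC siRNA library, from 40.1 to 141 for Mt-nd4l and from 2.34 to 9.24 for Mt-nd5. All 6 ratios share the Mt-nd4 reads.

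Among the other 6 subunits, the ratios moved far less. Over their 15 pairs, the log2 change of the within-library ratio was at most 0.20, which was reached by Mt-nd2 relative to Mt-nd5 (interval 0.17 to 0.23). For 7 of the 15 pairs the counting interval left out 0, among them all 5 pairs with Mt-nd5. These 5 pairs share the reads of Mt-nd5 and are not separate observations. With this many reads, small changes also leave out 0. The share over pairs of other genes was not computed, so nothing is read from this count. Mt-nd1 and Mt-nd2 kept nearly the same ratio, at 76.2 reads of Mt-nd1 per 100 reads of Mt-nd2 with NC siRNA and 75.6 with CDH12 siRNA. Mt-nd3 and Mt-nd4l also kept theirs, with a log2 change of 0.0073 (-0.11 to 0.12).

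These differences were set beside those of all genes with at least 1000 reads in both libraries together, a minimum set after the values were seen. Each of the 7 subunits exceeds it at the level of either library, and at its NC siRNA level Mt-nd4 would have had 1345 reads. Of the 6152 genes above the minimum, 5 differed by more than 2-fold (0.0813%), 4 of them higher with CDH12 siRNA, and Mt-nd4 was among these. At their NC siRNA levels, 2 of these 4 genes would have had fewer than 1000 reads, so they passed the minimum only through the library in which they were higher. Since the difference of Mt-nd4 had chosen the subunits, its place there is a description. Another of the 4 was ENSRNOG00000016516, with 666 and 1773 reads, and the 1 lower gene was ENSRNOG00000011621, with 1145 and 498 reads. These identifiers have no symbol here and were singled out after their values were seen. The middle 95% of the genes with at least 1000 reads lay between -0.25 and 0.20, and all of the other 6 subunits fell within this range. A larger log2 ratio than that of Mt-nd2 was found in 12.2% of these genes and than that of Mt-nd5 in 78.6%. Of all genes with at least 20 reads, 25 had a larger log2 ratio than Mt-nd4, and they had between 21 and 769 reads in both libraries together.

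**Figure D4:**
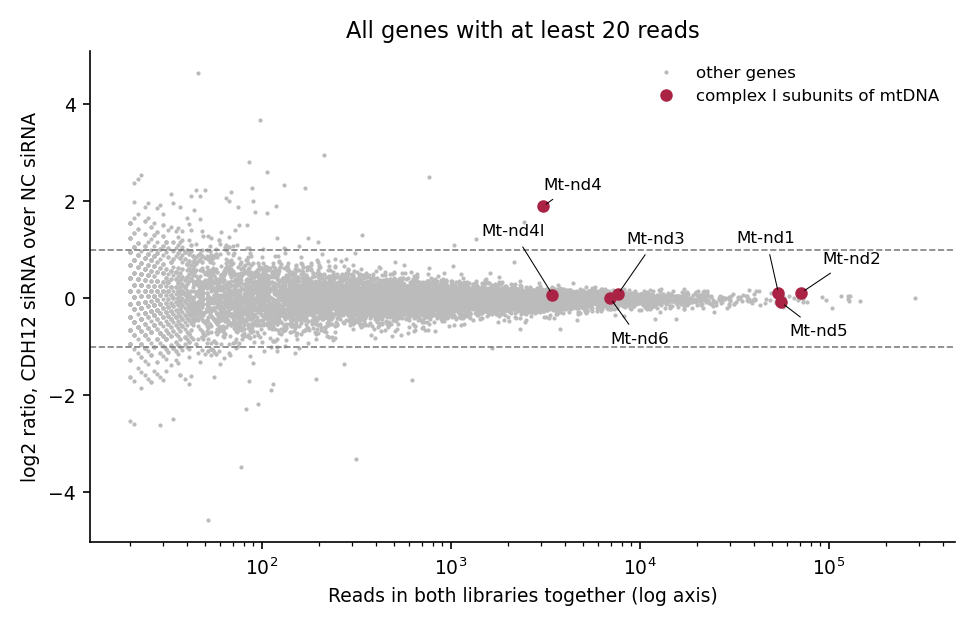
The log2 ratio of CDH12 siRNA over NC siRNA against the reads in both libraries together (log axis) for the 13317 genes with at least 20 reads, with the 7 subunits in red. Dashed lines mark a 2-fold difference. Mt-nd4 lies at 1.90 with 3071 reads, and the other 6 subunits lie near 0 within the cloud of genes.

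How reads that match several places were treated, which matters for mitochondrial genes because nuclear genomes hold copies of mitochondrial DNA, and how reads over both Mt-nd4l and Mt-nd4 were assigned, is not given in the sources used here. Neither is the strand setting of the counting, so reads of Mt-nd6 and of transcripts from the opposite strand may not be separated. The part of these steps in the value of Mt-nd4 was not tested.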

How the data were processed

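Total RNA from 1 NC siRNA and 1 CDH12 siRNA culture was made into libraries with a stranded TruSeq mRNA kit. Per the labels, an rRNA removal kit was also used. The submitters' processing notes name cutadapt 1.15, HTSeq 0.9.1 and DESeq 1.30.0 without roles; the paper gives another release of HTSeq for expression levels. The aligner, genome build and annotation are not given in the sources used here. The authors deposited 1 normalized signal per gene, reads divided by a size factor. Dividing by the smallest value above 0 (0.944 and 1.06 normalized counts per read) gave whole reads for 100% of values, within 0.01 read.

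The planned comparison needed no test and was kept for this unit. Log2 ratios used a pseudocount of 1, genes with at least 20 reads in both libraries together, and a fold over 2 as the threshold. Intervals are 95% Wilson intervals (scipy 1.17.1) without a pseudocount, and for changes of within-library ratios normal intervals of the log ratio. At these depths 3 reads are 1.94e-05% and 2.19e-05% of the reads. The functions were tested on simulated data. Alternatives used TMM from edgeR 4.0.16 in R 4.3.3, total reads, other pseudocounts, minimums and folds. The members and lists were chosen with earlier results of these data known. All 7 members were to be named, and other pathway genes only where a table pairs their identifiers, which it did for 0, so the lists of nuclear complex I, mitochondrial RNA processing and cell type genes were not analysed. No sequence of the members was at hand.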

Additional observations from a re-analysis of the deposited data

How the results depend on the processing

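The number of subunits over 2-fold was bound to be 1 under 7 alternatives (total reads, TMM, pseudocounts of 0.1 and 5, minimums of 1 and 100 reads, a fold over 1.5). Over its 6 alternatives, the log2 ratio of Mt-nd4 ranged from 1.85 to 1.91, and no other came near 2-fold. Total reads shifted every log2 ratio by 0.012 and TMM by 0.0010, turning no sign. Scaled instead to the reads of the remaining subunits, a choice made after seeing the data, the log2 ratios were 0.037 for Mt-nd1, 0.060 for Mt-nd2, 0.012 for Mt-nd3, 0.0038 for Mt-nd4l, -0.221 for Mt-nd5 and -0.071 for Mt-nd6, which turned the sign of Mt-nd6. By its construction this scale counts the difference of the others. The summed subunits had a log2 ratio of 0.086 with total reads without the subunits and of 0.048 without Mt-nd4, against 0.073.

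Among the 13317 genes with at least 20 reads in both libraries together, 256 differed by more than 2-fold. With at least 1 read the number was 1777, and with at least 100 reads it was 31. Minimums of 1000 and 3000 reads, both added after seeing the data, gave 5 and 1. The last is Mt-nd4, which passes 3000 only through its CDH12 siRNA reads. A fold over 1.5 gave 822 and a pseudocount of 5 gave 141. The read minimums change which genes are counted. By construction, a lower fold cannot give a smaller number, and a larger pseudocount shrinks the log2 ratios. edgeR's exact test on the recovered reads, with a dispersion from both libraries taken as 1 group, called 203 genes over the whole table; it compares these libraries, not the treatments, and is not used for the subunits. No paired analysis was possible because there was only 1 library of either kind, and leaving out a library was not possible for the same reason. The alternative for the gene lists was not run.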
